A study of Sus scrofa with 12 samples.

Results

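The comparison is between porcine muscle satellite cells of the arm labelled CBP and control cells, both collected after 60h of differentiation. Each group has 3 libraries, so 6 of the 12 libraries of the series are compared. The other 6, from the same 2 arms at 0h (labelled proliferation), enter the estimate of the spread and the test of the difference between stages. Controls are called WT in the labels and NC in the deposited table, and these group names stand under a genotype tag. One treatment text is attached to every sample, controls included. It names the compound SGC-CBP30 at a labelled 5 uM (with "per ml" added to the unit), for 48 h in proliferation and 60 h in differentiation. The CBP arm was therefore taken as the treated arm, and its cells are called inhibitor-treated below. What the labels leave unsaid is whether CBP means the compound or a genetic change, what the controls received, and whether the 60h cells were already exposed in proliferation. The cell line is given as C3H, a name used in mouse, although organism and genome build are those of the pig. Nothing says that the 3 libraries of a group came from separate cultures, so the p-values measure the spread between these libraries, which may be technical.

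CBP, encoded by CREBBP, and its relative p300, encoded by EP300, are coactivators that acetylate histones and other proteins at promoters and enhancers. Both carry a bromodomain, a pocket that binds acetylated lysine, and SGC-CBP30 is a small molecule made to occupy that pocket. Satellite cells are the stem cells of skeletal muscle. When they differentiate they leave the cell cycle, switch on muscle genes and fuse into myotubes. Secreted factors of the FGF, TGF-beta, BMP, WNT and IGF families, acting through receptors on neighbouring cells, hold back or promote that step, and transcription factors read out those signals.

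Expression was measured by RNA-seq of total RNA and deposited as FPKM, the reads of a gene divided by its length and by the reads of its library. The 6 libraries at 60h held 18047871 to 19079744 recovered reads (all 12, 16095335 to 19155240), and 11636 of 31908 genes were tested (those that reached 1 FPKM in 3 or more of the 12 libraries). Every change is a difference of log2(FPKM + 1) values, a scale that makes changes of low genes look smaller. Fold values are ratios of mean FPKM, and ± marks the SD over 3 libraries. CREBBP itself stood at 8.77, 8.62 and 8.35 FPKM in the control libraries and at 13.9, 13.1 and 15.1 FPKM in the treated ones. It was higher in every treated library, by 0.65 on the log2 scale (SE 0.056, limma adjusted p = 5.79e-07), and EP300 was higher by 0.29 (SE 0.048). A bromodomain ligand leaves the transcript of its target in place, so these levels do not test the labels.

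Markers of muscle cells were present in both groups. The 18 myoblast and satellite cell markers in the table summed to 3358 to 3556 FPKM in the control libraries and to 2384 to 2617 FPKM in the treated ones, with 6 of 17 tested higher and 10 lower. Over all tested genes the shares were 44.7% higher and 27.0% lower. The summed markers of other cells were mostly lower with the inhibitor. Fibroblast and fibro-adipogenic markers summed to 4246 to 4414 against 2825 to 3065 FPKM (8 of 15 tested lower, 5 higher), and smooth muscle and pericyte markers to 382 to 399 against 132 to 141 FPKM (8 of 10 lower, 1 higher). Cartilage, bone and tendon markers summed to 25.7 to 27.9 against 12.7 to 13.6 FPKM (4 of 5 lower, 1 higher). Endothelial markers summed to 18.3 to 20.7 against 7.91 to 8.77 FPKM, and in control libraries, but not in treated ones, most of it was the transcription factor ERG. Of 3 tested 2 were lower and 1 higher, and 9 others were above 0 but under 1 FPKM, CDH5 and VWF among them. Immune markers summed to 5.79 to 6.49 against 4.36 to 5.24 FPKM (1 of 3 higher, 1 lower, CD3E listed at 0), and adipocyte markers to 5.93 to 6.47 against 4.61 to 5.56 FPKM (1 of 4 higher, 1 lower, ADIPOQ listed at 0). Epithelial markers summed to 3.06 to 3.22 against 0.501 to 0.689 FPKM, with the 1 tested marker lower, EPCAM, GRHL2 and KRT5 listed at 0 and 7 others above 0 but under 1 FPKM. Schwann and glial markers summed to more, 62.1 to 66.3 against 72.6 to 73.6 FPKM, but nearly all of that was ERBB3 (means 63.7 and 72.5 FPKM). Of 2 tested, 1 was higher and 0 lower, and after median-of-ratios scaling 0 were higher and 1 lower. In this list 8 markers were above 0 but under 1 FPKM. In bulk RNA, fewer cells of a type and less RNA per cell cannot be told apart. Whether the share of any cell type changed, and how far the changed marker sums bear on the results below, was not tested.

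Of the 11636 genes, 5200 (44.7%) were called higher in treated cells at 60h and 3137 (27.0%) lower, at a limma adjusted p under 0.05. Large changes went more often down than up. By at least 1 on the log2 scale, 296 genes (2.54%) were higher and 582 (5.00%) lower. By at least 2, it was 18 against 133, and by at least 3, 1 against 21. The values of the 2 groups did not overlap in 8643 genes (74.3%). Scaling decides how the small changes divide. Median-of-ratios scaling took the median over all genes from 0.10 to -0.01 on the log2 scale, a shift of 0.11. With it 3850 genes (33.1%) were higher and 4180 (35.9%) lower, so that the share of higher calls went from 62.4% to 47.9%. Of the genes called higher, 1347 were not called after that scaling and 3 were called lower. By at least 1, the scaled counts were 221 higher and 709 lower. The plot of change against level shows the longer lower arm.

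**Figure D1:**
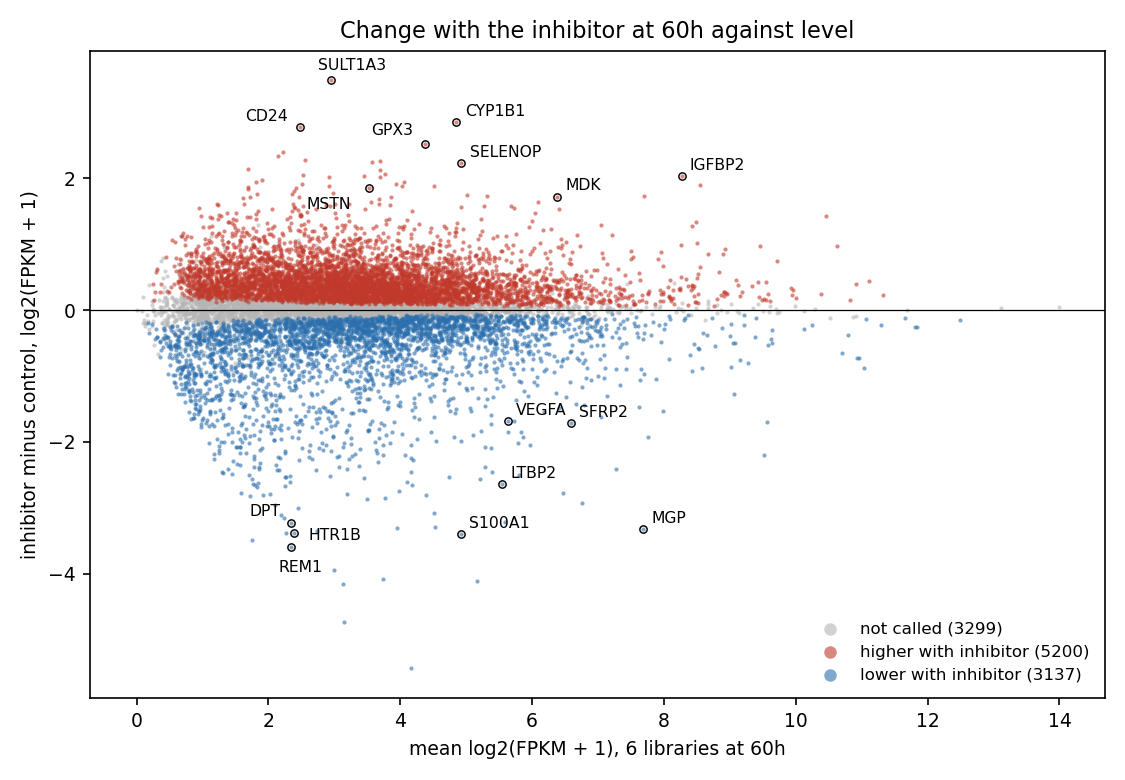
Change with the inhibitor at 60h (log2(FPKM + 1), inhibitor minus control, vertical axis) against mean log2(FPKM + 1) of the 6 libraries (horizontal axis) for the 11636 tested genes, one point each. Called genes are coloured by direction (5200 higher, 3137 lower), the rest are grey, and labelled points are genes named in the text. Below -2 lie 133 called genes, and above 2 lie 18.

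The largest rise was that of SULT1A3, a phenol sulfotransferase, at 1.12, 1.52 and 1.27 FPKM in control and 24.1, 27.5 and 23.05 FPKM in treated libraries. The groups stood far apart, at 19.1-fold (log2 change 3.49 with SE 0.123, limma adjusted p = 2.02e-10), but the gene has near-identical copies and the authors' counting may have divided reads among them. CYP1B1 (ENSSSCG00000033844), a cytochrome P450 that oxidises steroids and aromatic hydrocarbons, came next. It read 9.36, 10.1 and 9.83 FPKM in control libraries and 78.1, 75.6 and 76.4 FPKM in treated ones. All 3 treated libraries were above all controls, and the mean rose 7.86-fold (log2 change 2.85 with SE 0.040, limma adjusted p = 2.19e-13). CYP1B1 is a known target of the aryl hydrocarbon receptor, and so are CYP1A1, TIPARP and NQO1, which did not all rise. CYP1A1 rose from 1.29 ± 0.172 to 3.43 ± 0.367 FPKM and TIPARP from 5.203 ± 0.349 to 9.98 ± 0.142 FPKM, while the receptor AHR fell by 0.18 on the log2 scale. Its partners ARNT and ARNT2 rose 1.39-fold and 2.002-fold, and its repressor AHRR 1.42-fold. Over the whole list of oxygenases and sulfotransferases, 12 of 27 tested genes were higher and 11 lower (44.4% and 40.7%, against 44.7% and 27.0% of all genes). NQO1 was among its 3 largest falls with a mean of 2 FPKM or more in control cells.

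GPX3, SELENOP, SESN3 and TXNIP were also among the 20 largest rises. GPX3, the secreted glutathione peroxidase, stood at 7.52, 7.08 and 8.39 FPKM in control and 49.5, 49.00 and 47.9 FPKM in treated libraries, a 6.37-fold rise without overlap. SELENOP (ENSSSCG00000021208, chromosome 16, 27537885 to 27547863 in Sscrofa11.1, the build of all positions given here), which carries selenium in plasma and supplies it for such peroxidases, read 13.2, 12.5 and 13.4 FPKM against 63.8, 71.7 and 60.3 FPKM. Its lowest treated library was several times its highest control (5.004-fold, log2 change 2.24 with SE 0.053, limma adjusted p = 9.49e-12). SESN3, a sestrin that dampens mTORC1, rose from 1.04 ± 0.0522 to 9.79 ± 0.791 FPKM. TXNIP, which binds thioredoxin and limits glucose uptake, read 5.77, 5.31 and 4.501 FPKM in control and 25.3, 27.2 and 25.7 FPKM in treated libraries. The groups were again apart, at 5.02-fold. Other members of the list of glutathione peroxidases, sestrins and selenoproteins moved both ways. Of 33 tested, 19 were higher and 8 lower (median log2 change 0.26, against 0.10 over all genes), and PRDX6, SELENOM and the deiodinase DIO2, which activates thyroid hormone, had the largest falls. DIO2 went from 3.36 ± 0.0528 to 0.425 ± 0.114 FPKM.

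**Figure D2:**
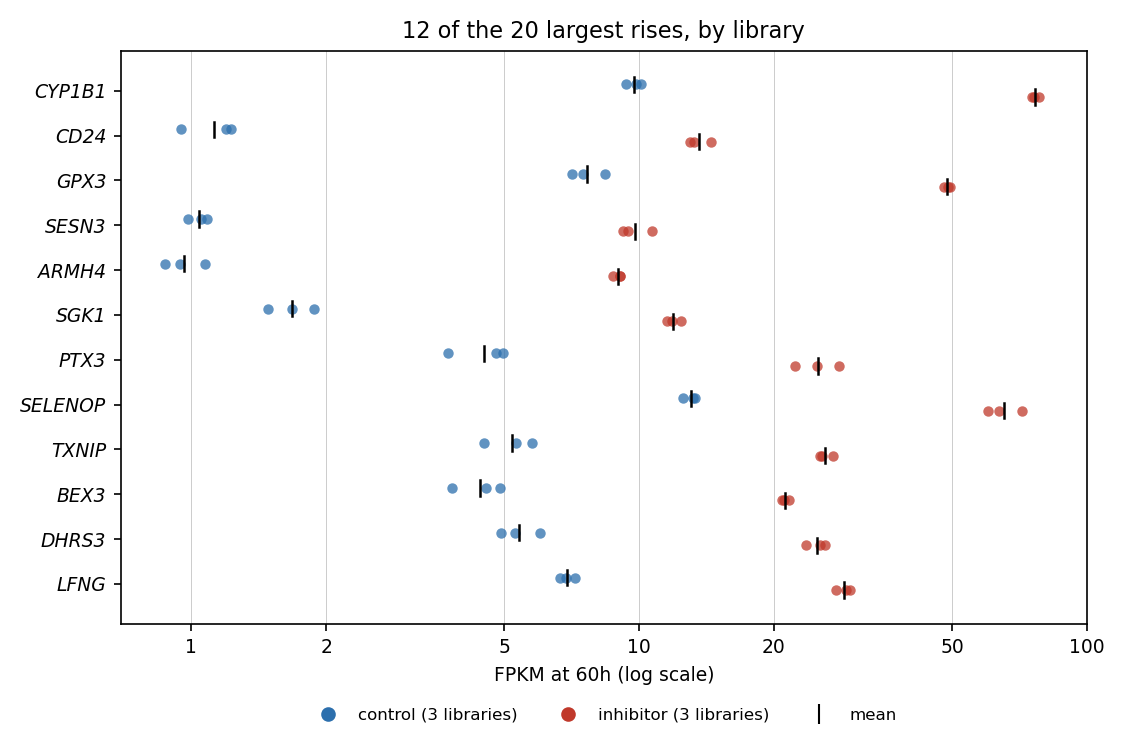
FPKM at 60h (horizontal axis, log scale) of 12 of the 20 genes with the largest rises among those with a mean of 5 FPKM or more in the treated group. Points are single libraries (3 control, 3 inhibitor-treated) and vertical ticks are the group means. In each gene all treated points lie to the right of all control points, from LFNG (mean 6.91 to 28.7 FPKM) to CYP1B1 (9.76 to 76.7 FPKM).

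The same group of large rises held genes of other kinds. SGK1, a kinase induced by serum and glucocorticoids, read 1.68, 1.48 and 1.88 FPKM in control and 11.9, 12.4 and 11.5 FPKM in treated libraries, 7.103-fold higher without overlap. CD24, a small anchored surface protein, rose from 1.12 ± 0.151 to 13.6 ± 0.809 FPKM, and ARMH4 from 0.962 ± 0.101 to 8.96 ± 0.1997 FPKM. DHRS3 (ENSSSCG00000003439, chromosome 6, 72556234 to 72599233), which reduces retinal to retinol and so draws it away from retinoic acid, rose 4.62-fold, from 5.41 ± 0.554 to 24.98 ± 1.24 FPKM. Of other genes named here that act on retinoids, ALDH1A3, which makes retinoic acid, fell 2.92-fold, CYP26B1, which degrades it, 20.3-fold, and the receptor RARG 3.48-fold. LFNG, the fringe enzyme that modifies Notch receptors, rose 4.16-fold, from 6.91 ± 0.268 to 28.7 ± 1.02 FPKM. BEX3 (4.79-fold), TMEM59L (4.25-fold), CYRIA, a regulator of the actin skeleton (5.89-fold) and the histone gene HIST1H2BD (4.74-fold) were also among the 20 largest. MIR1-2, a microRNA gene of muscle, ranked with them on 4 against 29 reads over 3 libraries each.

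The 20 largest falls included REM1, S100A1, ANPEP, LOXL4 and MGP. REM1, a small GTPase that restrains calcium channels, read 17.1, 15.9 and 16.9 FPKM in control and 0.873, 0.446 and 0.136 FPKM in treated libraries, 34.3-fold lower. The calcium-binding protein S100A1 fell from 97.2 ± 1.97 to 8.36 ± 1.11 FPKM, the aminopeptidase ANPEP from 47.5 ± 1.95 to 3.92 ± 0.0574 FPKM and the lysyl oxidase LOXL4, which cross-links matrix proteins, from 20.3 ± 0.655 to 1.08 ± 0.178 FPKM. MGP (ENSSSCG00000037697, chromosome 5, 57665272 to 57669360), the matrix Gla protein that inhibits calcification, was one of the most abundant of them. It stood at 649, 639.9 and 665 FPKM in control and 68.2, 59.4 and 65.5 FPKM in treated libraries, with no overlap (10.1-fold lower, log2 change -3.32 with SE 0.056, limma adjusted p = 6.53e-13). DPT, a matrix protein of fibroblasts, fell 21.8-fold, MAP3K7CL 9.48-fold and the zinc finger protein ZBED2 15.5-fold. DPT belongs to the fibroblast markers, whose summed level fell as given above.

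Most of the tested secreted factors were lower. Of 333 listed, 294 were in the table and 148 were tested. Of these 37 were higher, 91 lower and 20 not called, with a median log2 change of -0.46 against 0.10 over all genes. In shares, 25.0% were higher and 61.5% lower, against 44.7% and 27.0% of all genes. After median-of-ratios scaling 35 were higher and 100 lower (23.6% and 67.6%, against 33.1% and 35.9%). By at least 1 on the log2 scale, 8 were higher and 50 lower (5.41% and 33.8%, against 2.54% and 5.00%). In 25 of the 148 the mean reached 1 FPKM in only 1 of the 2 groups at 60h, and members that low in all groups did not enter the test. The chart of calls by family gives each list.

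**Figure D3:**
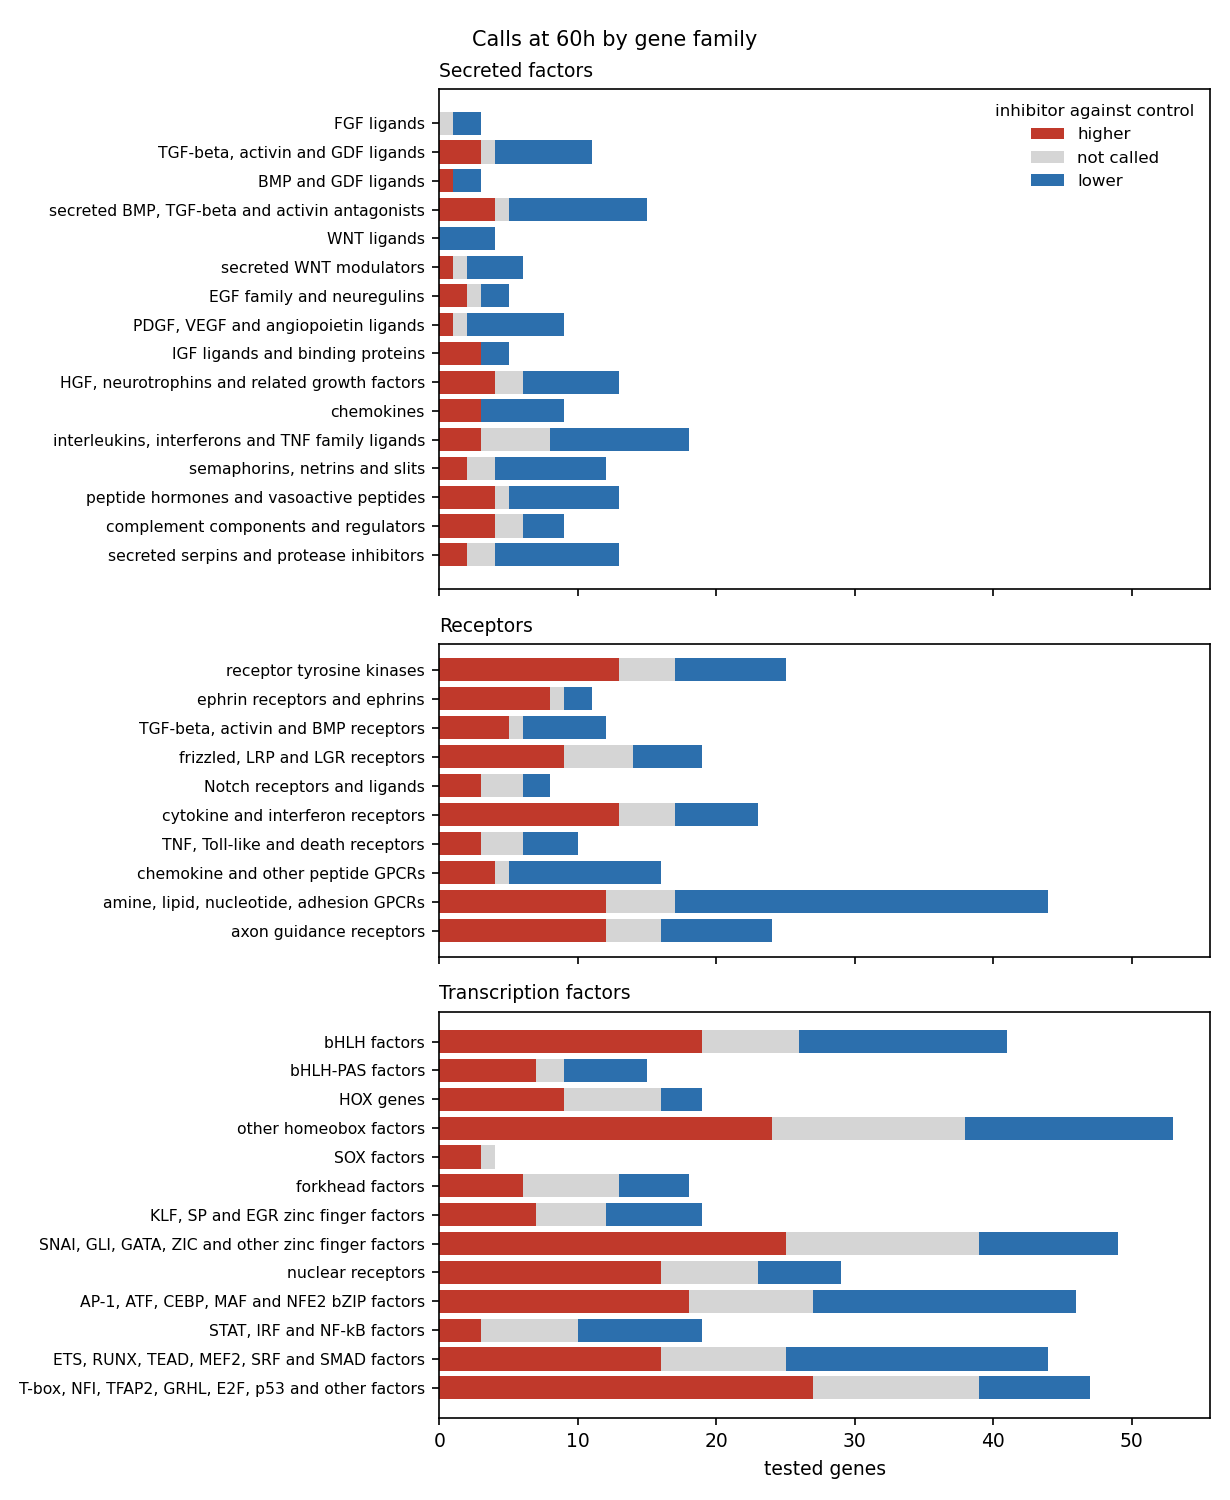
Number of tested genes of each family called higher, not called or called lower with the inhibitor at 60h (horizontal axis, stacked bars starting at 0), by family list (vertical axis), for secreted factors, receptors and transcription factors. In most secreted families the lower part is the longest, as in the 10 of 15 genes listed as antagonists of BMP, TGF-beta and activin.

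Ligands of the TGF-beta family divided. MSTN (ENSSSCG00000016047, chromosome 15, 94623526 to 94628440), myostatin, which limits muscle growth, read 4.77, 5.34 and 5.09 FPKM in control and 22.3, 19.9 and 20.7 FPKM in treated libraries. Every treated library exceeded every control, and the mean rose 4.14-fold (log2 change 1.86 with SE 0.055, limma adjusted p = 4.73e-11). Its close relative GDF11 rose with it, from 2.46 ± 0.459 to 8.25 ± 0.1901 FPKM. Going the other way, INHBA, the activin A subunit, read 19.8, 19.8 and 18.8 FPKM in control and 3.57, 3.25 and 2.97 FPKM in treated libraries, a 5.97-fold fall without overlap. GDF15, a stress hormone, fell from 41.6 ± 1.89 to 5.97 ± 0.183 FPKM, TGFB3 2.65-fold and TGFB1 1.21-fold. In all, 3 of 11 tested TGF-beta, activin and GDF ligands were higher and 7 lower. Among the BMPs, GDF6 fell from 9.67 ± 0.377 to 0.555 ± 0.218 FPKM and BMP4 from 12.2 ± 0.464 to 5.23 ± 0.123 FPKM.

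Of the secreted proteins listed by family as antagonists of BMP, TGF-beta and activin, 10 of 15 tested fell and 4 rose (median log2 change -1.18). Whether each of them binds such a ligand was not measured. LTBP2, a protein of elastic fibres listed here for its family name, read 111, 119.6 and 117 FPKM in control and 16.6, 18.5 and 18.2 FPKM in treated libraries. The control libraries lay well above the treated ones, 6.53-fold (log2 change -2.64 with SE 0.042, limma adjusted p = 4.72e-13). The activin and myostatin antagonist FSTL3 fell 4.02-fold, from 53.9 ± 8.24 to 13.4 ± 0.662 FPKM, and LTBP4 4.28-fold. The 4 that rose did so by less, with FSTL1 at 1.35-fold, NBL1 at 1.29-fold and TWSG1 at 1.19-fold.

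All 4 tested WNT ligands were lower, among them WNT9A (2.48-fold), WNT5B (2.57-fold) and WNT5A (2.41-fold). Of 6 tested secreted WNT modulators 4 were lower and 1 higher. SFRP2, the most abundant of them, read 191, 172 and 158 FPKM in control and 49.2, 55.5 and 51.04 FPKM in treated libraries, 3.35-fold lower without overlap, SFRP4 fell 7.68-fold and WIF1 from 2.03 ± 0.181 to 0.263 ± 0.0224 FPKM. SFRP5, the 1 that was higher, rose from 1.06 ± 0.178 to 2.44 ± 0.192 FPKM. Of the FGF ligands only 3 were tested. FGF2, which keeps myoblasts dividing, read 20.1, 20.05 and 20.99 FPKM in control and 5.89, 5.73 and 5.41 FPKM in treated libraries, so every control library was above the treated ones (3.59-fold, log2 change -1.68 with SE 0.037, limma adjusted p = 4.34e-12). FGF9 fell 1.48-fold.

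Growth factors for vessels and mesenchyme were mostly lower, 7 of 9 tested PDGF, VEGF and angiopoietin ligands. VEGFA, which drives vessel growth, read 103, 83.2 and 79.2 FPKM in control and 27.3, 27.97 and 24.7 FPKM in treated libraries, 3.32-fold lower without overlap. VEGFC fell 5.33-fold, PDGFC 2.005-fold and PDGFA 1.79-fold, whereas PDGFD rose 1.33-fold. IGF binding proteins, which hold IGF in the medium and govern its access to cells, moved in opposite directions by large amounts. IGFBP2 (ENSSSCG00000035392, chromosome 15, 118822092 to 118850985) read 149.8, 151 and 153 FPKM in control and 626, 613 and 632 FPKM in treated libraries, and IGFBP5 126, 134 and 133 FPKM in control and 22.8, 19.98 and 24.7 FPKM in treated libraries. The first rose 4.13-fold (log2 change 2.04 with SE 0.030, limma adjusted p = 2.68e-13) and the other fell 5.83-fold (log2 change -2.495 with SE 0.065, limma adjusted p = 1.89e-11). IGFBP4 rose 2.67-fold and IGFBP7 1.34-fold, and IGFBP6 fell 4.04-fold.

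MDK (ENSSSCG00000013260, chromosome 2, 16130787 to 16133791), midkine, and PTN, pleiotrophin, are the members of 1 family of heparin-binding growth factors, and both rose. MDK read 43.7, 42.97 and 48.2 FPKM in control and 152, 140.4 and 159.6 FPKM in treated libraries. Its groups were well apart, at 3.35-fold (log2 change 1.72 with SE 0.052, limma adjusted p = 5.80e-11), and PTN rose from 13.3 ± 0.551 to 26.8 ± 1.39 FPKM. Of the same list OGN, the proteoglycan osteoglycin, fell 5.95-fold, CSF1, the macrophage growth factor, 1.77-fold and GAS6 1.58-fold. HBEGF, an EGF family ligand, rose 1.85-fold, from 13.2 ± 0.7903 to 24.5 ± 2.27 FPKM.

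Of 9 tested chemokines 6 were lower and 3 higher, but in 6 of the 9 the mean reached 1 FPKM in only 1 of the groups at 60h. Of 18 tested interleukins, interferons and TNF family ligands 10 were lower and 3 higher, with 4 of the 18 in that position. CCL11, the eosinophil attractant eotaxin, went against this. It read 2.31, 2.74 and 3.27 FPKM in control and 13.1, 16.4 and 13.1 FPKM in treated libraries, 5.12-fold higher without overlap. CCL8 fell from 4.08 ± 0.661 to 0.125 ± 0.124 FPKM. IL33, an alarm signal released by damaged cells, read 9.71, 11.97 and 13.7 FPKM in control and 1.89, 2.18 and 2.12 FPKM in treated libraries, 5.72-fold lower without overlap, and LIF fell 2.79-fold. The cytokine CLCF1 fell 2.82-fold, and IL11 rose 1.64-fold. PTX3, the secreted pattern recognition protein pentraxin 3, read 4.96, 4.79 and 3.75 FPKM in control and 22.3, 27.98 and 24.9 FPKM in treated libraries, a 5.57-fold rise without overlap. The spread of PTX3 was among the wider ones (± 2.84 FPKM in the treated group), and its SE was 0.154 for a log2 change of 2.25.

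Peptide hormones, guidance cues and protease inhibitors had 8 of 13, 8 of 12 and 9 of 13 tested genes lower, and 4, 2 and 2 higher. In 4 of the 13 peptide hormones the mean reached 1 FPKM in only 1 group at 60h. PTHLH, the parathyroid hormone-related protein, fell 12.7-fold, from 7.38 ± 0.231 to 0.5802 ± 0.236 FPKM, and STC2, stanniocalcin 2, 4.04-fold. ADM, the vasodilator adrenomedullin, rose 2.05-fold and METRNL, a secreted factor made by muscle and fat, 1.88-fold. Of the semaphorins, SEMA3F rose from 2.67 ± 0.09101 to 7.44 ± 0.291 FPKM and SEMA3B fell from 7.43 ± 0.542 to 1.14 ± 0.129 FPKM, and the netrin NTN4 fell 2.76-fold. Among the inhibitors SERPINF1, which counters vessel growth, fell 6.23-fold, WFDC1 8.75-fold and PI16, a fibroblast marker, 18.3-fold. Of 9 tested genes in the list of complement components and regulators 4 were higher and 3 lower, shares near those of all genes. All 3 lower ones were C1QTNF genes, which are related to C1q but are not complement components, with C1QTNF3 3.29-fold lower. SERPING1, the C1 inhibitor, was 1.45-fold higher.

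Receptors were called higher about as often as all genes and lower more often. The lists also hold membrane-bound ligands, among them ephrins, DLL1, JAG1, JAG2 and some semaphorins. Of 397 listed, 373 were in the table and 192 were tested, with 82 higher, 79 lower and 31 not called (median log2 change -0.01). These are 42.7% and 41.1%, against 44.7% and 27.0% of all genes, a difference that was not tested. After scaling it was 68 against 90 (35.4% and 46.9%, against 33.1% and 35.9%). By at least 1 on the log2 scale, 13 were higher and 26 lower (6.77% and 13.5%). In 28 of the 192 the mean reached 1 FPKM in only 1 group at 60h. Of 25 receptor tyrosine kinases 13 were higher and 8 lower (11 and 10 after scaling), shares near those of all genes. Of 44 G protein-coupled receptors for amines, lipids, nucleotides and adhesion 12 were higher and 27 lower (8 and 30), with 10 of the 44 at 1 FPKM or more in only 1 group at 60h.

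The receptors FGFR1, FGFR4, PDGFRA and EGFR rose. FGFR1, which carries the FGF2 signal that keeps myoblasts cycling, read 12.5, 12.5 and 12.8 FPKM in control and 26.8, 25.4 and 25.4 FPKM in treated libraries. The groups did not overlap, and the rise was 2.06-fold (log2 change 0.98 with SE 0.043, limma adjusted p = 1.41e-09). FGFR4, the FGF receptor of committed myoblasts, rose 2.41-fold. PDGFRA (ENSSSCG00000008841, chromosome 8, 40966568 to 41021440), which also marks fibro-adipogenic cells, read 10.6, 10.1 and 10.2 FPKM in control and 20.01, 22.9 and 19.4 FPKM in treated libraries, 2.02-fold higher without overlap. Its relative PDGFRB, a pericyte marker as well, fell 1.56-fold. EGFR rose from 16.8 ± 0.949 to 32.1 ± 0.486 FPKM. Falls in this list were MUSK, which organises the neuromuscular junction (4.02-fold), TYRO3 (2.87-fold) and, by less, AXL (1.19-fold).

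Ephrins and their receptors, which act between touching cells, had 8 of 11 tested genes higher, also after scaling, and 2 lower. In 4 of the 11 the mean reached 1 FPKM in only 1 group at 60h, so part of the count comes from members that entered the test through the group where they are high. EFNB1 read 9.41, 9.26 and 8.94 FPKM in control and 22.7, 23.6 and 23.7 FPKM in treated libraries. It was 2.54-fold higher, with no overlap. EFNA4, EFNA5 and EPHB2 were under 1 FPKM in control cells and reached 4.43 ± 0.378, 2.79 ± 0.0641 and 2.502 ± 0.179 FPKM with the inhibitor, and EPHB4 rose 2.25-fold. EPHA2 (2.07-fold) and EPHA4 (1.97-fold) fell.

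In the Wnt, Hedgehog and Notch pathways, the receptor FZD8 rose from 2.11 ± 0.0948 to 8.104 ± 1.06 FPKM, while FZD2 fell from 25.5 ± 2.25 to 12.3 ± 0.8900 FPKM. SMO, the Hedgehog signal transducer, rose 1.96-fold and NOTCH1 1.84-fold. The Notch ligand DLL1 rose 1.89-fold, and the ligands JAG1 and JAG2 fell 1.46-fold and 1.91-fold. Of 23 cytokine and interferon receptors 13 were higher and 6 lower (56.5% and 26.1%, against 44.7% and 27.0% of all genes). IFNAR1, a subunit of the type I interferon receptor, read 17.3, 17.7 and 17.1 FPKM in control and 37.9, 37.5 and 35.6 FPKM in treated libraries, 2.13-fold higher without overlap. IL4R rose 1.84-fold. IL1RL1, the receptor of IL33, fell with its ligand, from 8.78 ± 0.681 to 0.915 ± 0.0506 FPKM. TLR3, a sensor of double-stranded RNA, and CD40 fell 3.85-fold and 3.901-fold.

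Of 16 tested receptors for chemokines and other peptides, 4 were higher and 11 lower. In 5 of the 16 the mean reached 1 FPKM in only 1 group at 60h. CXCR4, the receptor of CXCL12, read 6.16, 7.61 and 8.11 FPKM in control and 25.7, 21.7 and 24.2 FPKM in treated libraries, and ACKR3, which clears CXCL12, 20.3, 24.6 and 22.9 FPKM in control and 7.38, 7.97 and 6.53 FPKM in treated libraries. The former was 3.27-fold higher and the latter 3.097-fold lower, neither with overlap. EDNRA, an endothelin receptor, rose from 2.005 ± 0.125 to 6.85 ± 0.557 FPKM and F2R, the thrombin receptor, from 0.659 ± 0.1803 to 2.81 ± 0.186 FPKM. HTR1B, a serotonin receptor, fell from 15.9 ± 0.458 to 0.623 ± 0.187 FPKM, 25.6-fold, the largest fall among the receptors on the log2 scale. RAMP2, a partner of the adrenomedullin receptor, fell 17.2-fold and ADGRG2 11.3-fold. In the list of guidance receptors, the receptor NRP2 fell 4.04-fold. SEMA6C and SEMA4C, membrane-bound semaphorins counted in the same list, rose 5.29-fold and 2.27-fold.

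Setting ligands beside their receptors, 41 of 92 listed pairs had both members tested. In 16 pairs the ligand was lower and the receptor higher, in 7 both were lower, in 5 both were higher and in 5 the ligand was higher and the receptor lower. After median-of-ratios scaling these counts were 14, 9, 4 and 5. Pairs share members, so they are not independent. Of the 41, 27 had a lower ligand and 21 a higher receptor, and these counts alone would give 13.8 pairs with both, close to the 16. Among those with a lower ligand and a higher receptor were FGF2 with FGFR1 and FGFR4, PDGFA and PDGFC with PDGFRA, INHBA with ACVR2A, VEGFA with FLT1, IL1A with IL1R1, JAG1 with NOTCH1 and NTN4 with NEO1. ACVR2A, an activin receptor, rose 1.78-fold, FLT1, a VEGF receptor, 1.74-fold, IL1R1 1.54-fold and NEO1 1.76-fold, and IL1A fell from 3.31 ± 0.369 to 0.447 ± 0.1904 FPKM. Both members rose in the pair of HBEGF and EGFR and in that of EFNB1 and EPHB2, and both fell in the pair of IL33 and IL1RL1.

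**Figure D4:**
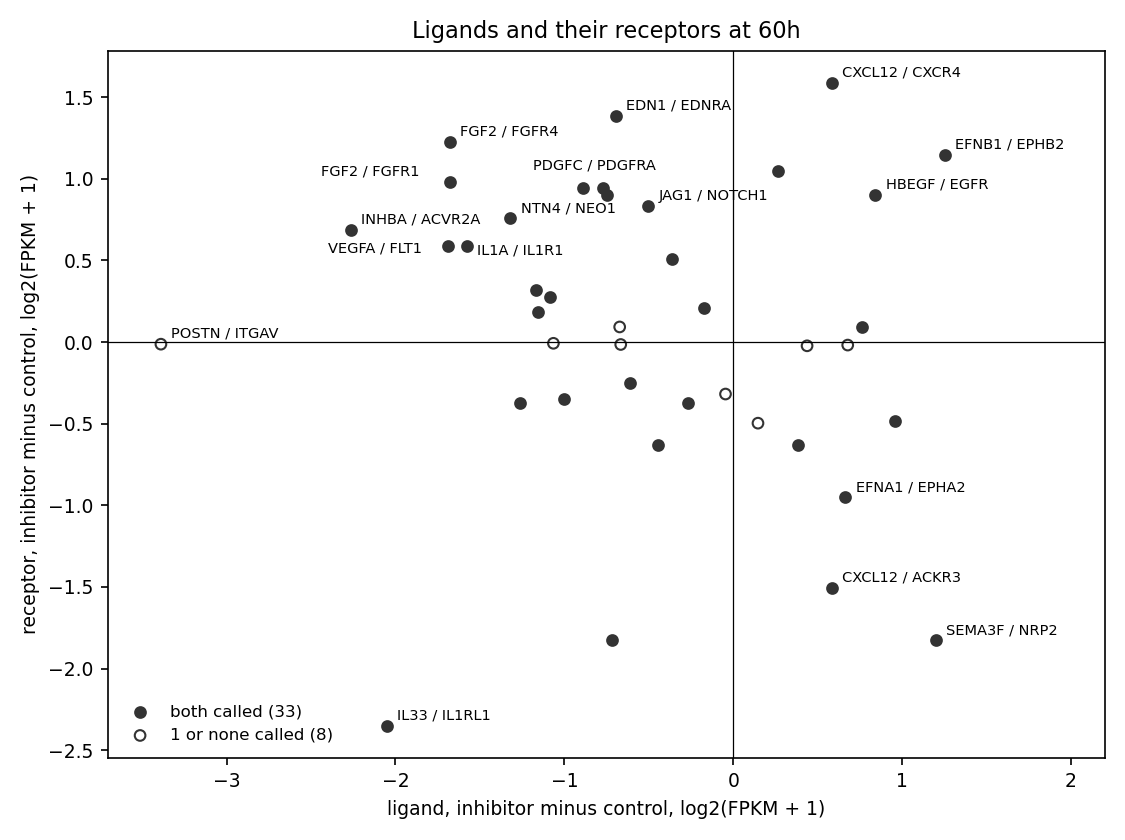
Log2 change with the inhibitor at 60h of the receptor (vertical axis) against that of its ligand (horizontal axis) for the 41 pairs with both members tested, one point each, on the log2(FPKM + 1) scale. Lines mark 0, and pairs in which both members were called are filled. The upper left field holds the 16 called pairs with a lower ligand and a higher receptor.

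Transcription factors were called at rates near those of all genes, 44.8% higher and 30.3% lower against 44.7% and 27.0%. The family counts below are to be read beside those shares of all genes. Of 675 listed, 647 were in the table and 402 were tested, with 180 higher, 122 lower and 100 not called (median log2 change 0.11). After scaling 142 were higher and 149 lower. By at least 1 on the log2 scale, 23 were higher and 20 lower (5.72% and 4.98%, against 2.54% and 5.00% of all genes). The share of large rises was thus above that of all genes, a difference that was not tested. In 34 of the 402 the mean reached 1 FPKM in only 1 group at 60h.

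The ID proteins, which bind E proteins and keep muscle bHLH factors off DNA, were all higher. ID1 read 22.2, 15.7 and 13.04 FPKM in control and 58.1, 61.8 and 53.6 FPKM in treated libraries. ID4 read 4.92, 3.86 and 4.21 FPKM against 11.97, 11.4 and 11.8 FPKM. Neither overlapped, with rises of 3.41-fold and 2.71-fold, and ID2 and ID3 rose 1.66-fold and 1.71-fold. Among other bHLH factors MYCL rose from 0.435 ± 0.0784 to 2.92 ± 0.156 FPKM, while MYC fell from 54.7 ± 1.59 to 40.7 ± 1.24 FPKM, MSC, musculin, fell 2.49-fold and TAL1, a blood and vessel factor, 3.43-fold.

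Of 49 SNAI, GLI, GATA, ZIC and other zinc finger factors, EBFs included, 25 were higher and 10 lower. These are 51.0% and 20.4%, against 44.7% and 27.0% of all genes. After scaling 22 were higher and 11 lower (44.9% and 22.4%, against 33.1% and 35.9%). These differences were not tested. SNAI2 (ENSSSCG00000039568, chromosome 4, 79264880 to 79268475), a repressor that keeps myoblasts undifferentiated, read 5.96, 6.701 and 6.49 FPKM in control and 22.7, 20.8 and 20.9 FPKM in treated libraries. All treated libraries were above all controls (3.36-fold, log2 change 1.61 with SE 0.058, limma adjusted p = 2.43e-10). EBF2 and EBF3, factors of mesenchymal and fat precursor cells, rose from 1.801 ± 0.176 to 8.799 ± 0.419 and from 2.45 ± 0.358 to 8.35 ± 0.463 FPKM. OSR2, of the same list, rose 3.099-fold. In other lists MEOX2, a homeobox factor of the somite, rose 2.86-fold and NFIB 3.05-fold. SMAD3, which carries TGF-beta and activin signals to the nucleus, read 16.4, 17.8 and 18.2 FPKM in control and 45.6, 45.4 and 44.05 FPKM in treated libraries, 2.58-fold higher without overlap. CEBPD, a bZIP factor of the acute phase, read 28.1, 19.2 and 16.6 FPKM against 74.4, 76.04 and 63.7 FPKM, 3.35-fold higher without overlap. BACH2 rose from 0.768 ± 0.0613 to 3.56 ± 0.237 FPKM.

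Of 19 KLF, SP and EGR factors 7 were higher and 7 lower. EGR3 read 2.99, 3.36 and 3.97 FPKM in control and 12.01, 13.1 and 11.5 FPKM in treated libraries, 3.54-fold higher without overlap, and EGR2 rose 1.66-fold. Outside that list FOS rose 2.24-fold, NR4A1 2.25-fold and NR4A3 2.92-fold. FOSL1, like FOS a subunit of AP-1, went the other way, 20.9, 24.4 and 22.1 FPKM in control and 7.99, 6.09 and 8.32 FPKM in treated libraries, 3.004-fold lower without overlap. KLF2 rose 2.204-fold, whereas KLF4, KLF9 and KLF11 fell 2.02-fold, 1.79-fold and 3.36-fold. Of 46 bZIP factors in all, 18 were higher and 19 lower.

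Of the homeobox factors IRX1 fell from 6.63 ± 0.3201 to 0.759 ± 0.151 FPKM, SIX3 from 4.16 ± 0.309 to 0.438 ± 0.0954 FPKM and the tendon factor MKX from 3.41 ± 0.204 to 0.735 ± 0.129 FPKM. Of 53 homeobox factors outside the HOX clusters, 24 were higher and 15 lower (19 and 18 after scaling). Of 19 HOX genes 9 were higher, led by HOXA9 (2.29-fold), and 3 lower. In shares these are 45.3% and 28.3%, and 47.4% and 15.8%, against 44.7% and 27.0% of all genes. Of 18 forkhead factors 6 were higher, none of them by 1 or more on the log2 scale, and 5 lower, 2 of them by that much. FOXS1, a forkhead factor of pericytes, fell from 5.703 ± 0.2195 to 0.488 ± 0.0435 FPKM and FOXF1 2.87-fold. Of 44 listed with the ETS, RUNX, TEAD, MEF2 and SMAD families and tested, 16 were higher and 19 lower. ERG, an ETS factor known from endothelial cells, read 14.5, 15.1 and 13.4 FPKM in control and 2.95, 2.99 and 3.27 FPKM in treated libraries, 4.67-fold lower without overlap. ETV1 fell 3.21-fold and TCF7, a WNT pathway factor, 4.01-fold, while TCF7L2 rose 2.15-fold. In the STAT, IRF and NF-kB list 3 of 19 were higher and 9 lower, with STAT3 1.73-fold higher.

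Surface proteins outside the receptor lists moved as well. Of 36 tested genes listed with the voltage-gated channels 9 were higher and 22 lower (25.0% and 61.1%, against 44.7% and 27.0% of all genes). In 14 of the 36 the mean reached 1 FPKM in only 1 group at 60h, so part of the count comes from members that entered the test through the group where they are high. KCNE5 rose from 15.3 ± 4.45 to 33.8 ± 3.29 FPKM, while KCNN1, a calcium-activated potassium channel, fell from 7.21 ± 0.606 to 0.388 ± 0.0898 FPKM. Of 19 cadherins 7 were higher and 11 lower, with CDH13 3.68-fold lower and CDH11 1.66-fold higher.

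The inhibitor effect at 60h was then set against the effect at 0h, as the difference between the 2 log2 changes in 1 model. Of the 11636 genes, the difference was above 0 in 2823 (24.3%) and below 0 in 3104 (26.7%). Among the secreted factors it was above 0 in 43 and below 0 in 71 of 148, among the receptors in 74 and 62 of 192, and among the transcription factors in 164 and 84 of 402. Of the 91 secreted factors lower at 60h, 66 had a called difference below 0. Of all 3137 genes lower at 60h, 2125 did, a similar share, and choosing genes lower at 60h favours such a difference. For LTBP2 the change was -0.06 at 0h and -2.64 at 60h, a difference of -2.58 (limma adjusted p = 5.74e-11), and for FGF2 it was -0.15 and -1.68, a difference of -1.53 (limma adjusted p = 7.79e-10). IGFBP5 was lower at both stages, by -1.99 at 0h and -2.495 at 60h. Among the transcription factors, SMAD3 changed by 0.04 at 0h and 1.32 at 60h (difference 1.28, limma adjusted p = 8.44e-09), EGR3 by -0.01 and 1.58 (difference 1.59, limma adjusted p = 4.01e-07) and EBF2 by 0.21 and 1.81 (difference 1.596, limma adjusted p = 6.00e-08). With voom on the recovered reads the difference for EGR3 was 1.995 and not called (limma adjusted p = 0.0757).

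Without scaling, in 366 genes the effect was a fall at 0h and a rise at 60h, and in 631 it was a rise at 0h and a fall at 60h, with the difference itself called. Both counts depend on the sign of each effect, and they were not made after median-of-ratios scaling. That scaling took the median change of all genes at 60h from 0.10 to -0.01 on the log2 scale. Whether the second count would still exceed the first after scaling was not tested. MSTN fell from 5.96 ± 0.259 to 3.29 ± 0.188 FPKM at 0h and rose at 60h, a difference between effects of 2.55 (limma adjusted p = 3.23e-10). CYP1B1 went from 39.3 ± 1.97 to 33.6 ± 1.06 FPKM at 0h, and its difference was 3.07 (limma adjusted p = 1.02e-11). The reverse held for GDF15, from 24.7 ± 0.8403 to 33.1 ± 3.16 FPKM at 0h (difference -3.01, limma adjusted p = 1.49e-10), and for FOSL1, from 35.1 ± 2.54 to 55.8 ± 2.43 FPKM (difference -2.13, limma adjusted p = 1.07e-07). The plot of both effects shows these genes in the upper left and lower right fields.

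**Figure D5:**
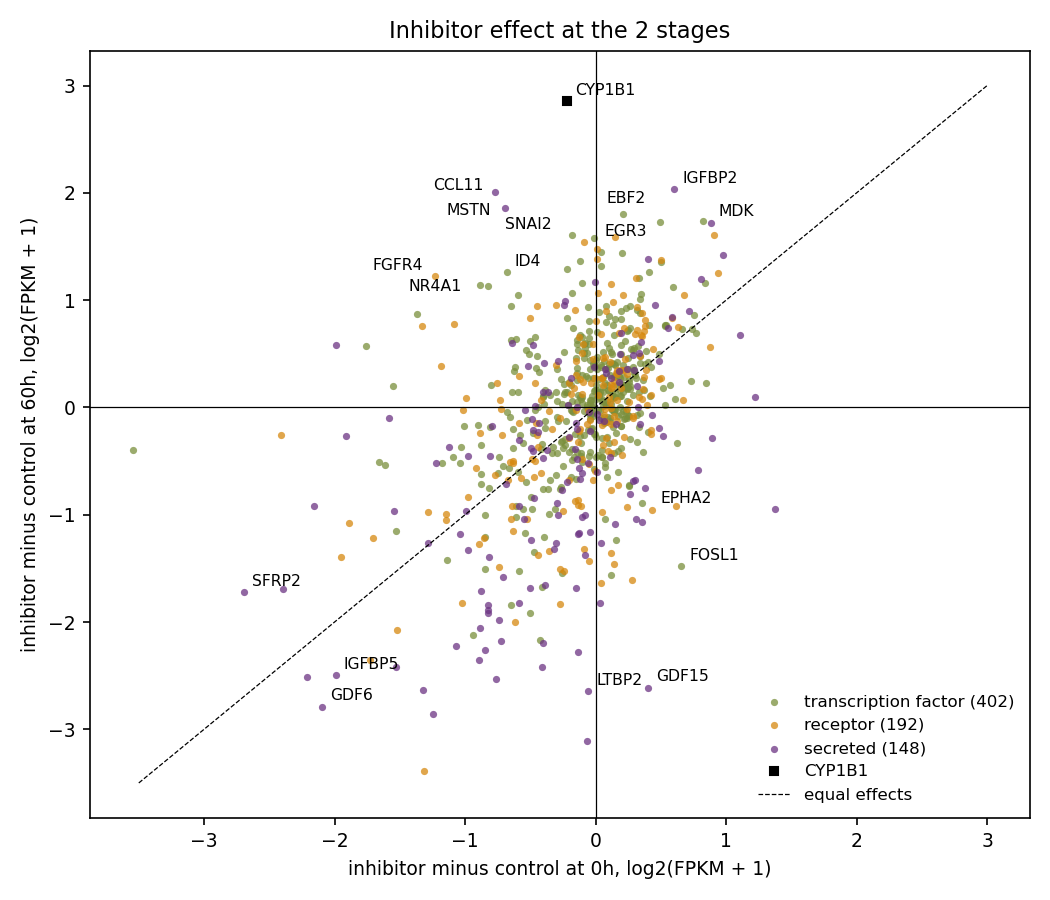
Inhibitor minus control on the log2(FPKM + 1) scale at 60h (vertical axis) against the same at 0h (horizontal axis) for the secreted factors, receptors and transcription factors tested (148, 192 and 402 genes, by colour), one point each, and for CYP1B1 (square). Lines mark 0 and equal effects, and MSTN, CYP1B1, GDF15 and FOSL1 are among the labelled points off the line of equal effects.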

How the data were processed

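RNA-seq libraries were made from total RNA of porcine satellite cells, per the labels' protocols, with 3 libraries in each of 4 groups. The submitters' processing notes name Trimmomatic, featureCounts and the build Sscrofa11.1. Which aligner, annotation release and strand setting were used is not given in the sources used here, and overlapping or antisense genes may share reads. The values deposited are FPKM, 1 column per library. Of 31908 genes 16801 had a symbol in the table, and 687 more were matched by identifier to the pig reference. Positions are those of the reference.

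FPKM is a whole number of reads divided by gene length and library total, so the totals were recovered from its steps: all 22521 genes above 0 gave whole reads within 0.001. The totals (16095335 to 19155240 reads) leave genes under 1 FPKM the least precise.

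Genes that reached 1 FPKM in 3 or more of 12 libraries were kept. Log2(FPKM + 1) was fitted with limma 3.58.1 (R 4.3.3), 4 group means over 12 libraries, trended empirical Bayes, two-sided tests, Benjamini-Hochberg over 11636 genes, calls at an adjusted p under 0.05. The script was tested on simulated data. Families of secreted factors, receptors, transcription factors and other groups (43 lists), 9 marker lists and 92 ligand-receptor pairs were counted beside all genes, without a set test. Named genes were called, had a symbol and did not overlap between groups. They are from the 20 largest rises and falls (mean of 5 FPKM or more in the higher group), the 12 largest per class and the 3 largest per list (mean of 2 FPKM or more), the pairs, the markers and a short list of set genes (CREBBP, EP300, AHR and its partners, ID1 to ID3, MYC, CDKN1A). Members of pairs and the set genes were named without regard to call, and not every gene the rule takes is printed. The comparison, the lists and the rule were chosen with earlier results of these data known. Alternatives were median-of-ratios scaling, a pseudocount of 0.1, no filter, a replicate block, only the libraries at 60h, each library left out in turn, and, added after seeing the data, limma's voom on the recovered reads.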

Additional observations from a re-analysis of the deposited data

Results flagged for a closer look

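Of 182 tested genes printed above, 30 were called in opposite directions at the 2 stages, with the difference between the 2 effects called as well (limma, adjusted p under 0.05). Both effects and their difference are log2 changes on the log2(FPKM + 1) scale, inhibitor minus control. Of all 11636 tested genes 366 fell at 0h and rose at 60h, and 631 did the reverse, without scaling. Many printed genes were chosen for large changes at 60h, which favours such calls, so their number is not a rate for all genes.

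Lower at 0h and higher at 60h were, in order of size, MIR1-2 with a difference of 3.75 on few reads, CYP1B1 (3.07), CCL11 (2.78), MSTN (2.55), TXNIP (2.54) and FGFR4 (2.46). FGFR4 changed by -1.23 at 0h and 1.22 at 60h, and CCL11 by -0.77 and 2.01. The Notch ligand DLL1 had a difference of 2.09 and its receptor NOTCH1 of 1.34. Among transcription factors the difference was 2.03 for NR4A1, 1.94 for ID4, 1.79 for SNAI2, 1.64 for KLF2 and 1.505 for MEOX2. PDGFRA, with 1.39, is also a fibroblast marker. The remaining differences above 0 were 1.203 for ADM, 1.14 for CDH11, 1.07 for SMO, 1.07 for CXCL12, 0.903 for PDGFD, 0.81 for IGFBP7 and 0.72 for FSTL1.

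Higher at 0h and lower at 60h were 9 genes. The difference was -3.01 for GDF15, -2.13 for FOSL1, -1.42 for CLCF1, -1.396 for TAL1, -1.39 for EPHA2, -1.23 for BMP4, -1.07 for CSF1, -0.79 for TGFB1 and -0.67 for AXL. GDF15 changed by 0.401 at 0h and -2.61 at 60h, and EPHA2 by 0.44 and -0.95.

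For 5 of these genes the change at 0h was not called without some single libraries at 0h. These were ADM (without treated library 2 or any 1 control), BMP4 (treated 2 or control 2), MIR1-2 (any 1 treated, or control 3), SNAI2 (treated 2 or control 2) and TAL1 (treated 3 or any 1 control). Without those libraries the change at 0h lay between -0.18 and -0.25 for ADM, at 0.11 for BMP4, between -0.94 and -1.61 for MIR1-2, at -0.13 and -0.16 for SNAI2 and between 0.12 and 0.16 for TAL1. After median-of-ratios scaling it was 0.03 for BMP4 and 0.07 for TAL1, neither called.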

How the results depend on the processing

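Counts of called genes at 60h, in each direction and within secreted factors, receptors and transcription factors, stayed within 1.5 times of the values given in the report under every alternative run, except for the count of large changes. By at least 1 on the log2 scale, 625 genes were higher with a pseudocount of 0.1 and 667 with voom on the recovered reads (chosen after seeing the data), against 296, and 880 were lower with voom, against 582. A pseudocount of 1 shrinks the change of low genes, and these settings shrink it less. Median-of-ratios scaling gave 3850 genes higher and 4180 lower in place of 5200 and 3137. With each library at 60h left out in turn, genes higher ranged from 4821 to 5007 and genes lower from 2880 to 3001. By at least 1, the ranges were 273 to 305 higher and 529 to 589 lower. Changes at 60h were not counted with a library at 0h left out. With each of the 12 libraries left out, differences between stages ranged from 2534 to 2803 above 0 and from 2804 to 2980 below 0. Without 1 library at 60h, secreted factors lower ranged from 81 to 91 and higher from 32 to 37. The ranges were 71 to 78 and 73 to 82 for receptors, and 112 to 121 and 162 to 176 for transcription factors.

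Same-numbered libraries of the 2 groups did not deviate together (correlations of 0.01, -0.05 and -0.05 for numbers 1, 2 and 3), so no pairing by number was seen. With 3 libraries per group, this cannot exclude a shared culture or batch. With the replicate number as a block, 5167 genes were higher and 3103 lower.

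Many of the genes printed were chosen for being called at 60h, without overlap and with large changes, which favours keeping the call. For 182 of the genes printed, all 2161 single changes at 60h that were recomputed kept their direction and their side of the threshold. A further 23 could not be computed, because 8 genes no longer passed the filter with a library left out. For the 36 genes whose difference between stages is discussed, 608 of 609 recomputed differences did so too, and EGR3 with voom did not. Most of the 36 were picked because that difference was called. Of their 395 recomputed changes at 0h, 24 lost their call, 1 gained it (LTBP2, -0.19 after scaling) and 4 uncalled ones changed sign. These were EGR3 in 3 settings, with a range of -0.0450 to 0.0154 when libraries at 0h were left out in turn, and SMAD3, at -0.0883 after scaling. Genes near the filter rest on few reads, and for them a change below the spread was not detectable at this depth.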
